A study of Mus musculus with 6 samples.

Results

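The *Hox* genes of the mouse were examined in the uterine luminal layer and in blastocysts shortly before embryo attachment. Members were the rows of both count tables named *Hoxa*, *Hoxb*, *Hoxc* or *Hoxd* followed by a number. There were 39 such genes among the 23420 genes measured, 11 in the *Hoxa* cluster, 10 in *Hoxb*, 9 in *Hoxc* and 9 in *Hoxd*. RNA was sequenced from 6 groups with 1 library each, collected at 8 pm on day 4 of pregnancy. Luminal layers were laser-microdissected from Lif-floxed/floxed females given PBS (control), from Lif-floxed/floxed Ltf-Cre/+ females given PBS (*Lif* eKO), and from Lif-floxed/floxed Ltf-Cre/+ females given recombinant Lif (rLif). The rLif dose was 20 µg per head at 10 am and again at 6 pm, 2 h before dissection. Blastocysts were flushed from uteri of the same 3 kinds, and the embryos of all 3 groups were labelled Lif-floxed/+. The *Ltf* driver deletes *Lif* in the uterine epithelium and leaves the stromal gene in place. Luminal libraries pooled several animals and blastocyst libraries pooled several embryos, so no value has a replicate check, the spread between animals is unknown, and no p-value is given.

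*Hox* genes encode homeodomain transcription factors that give cells of the embryo their position along the body axis. They lie in clusters on different chromosomes, and genes at matching places in the clusters form the paralogous groups, from group 1 at the anterior end to group 13 at the posterior end. Along the Müllerian duct the posterior *Hoxa* genes are expressed in order, *Hoxa9* in the oviduct, *Hoxa10* and *Hoxa11* in the uterus and *Hoxa13* in the cervix and vagina. *Hoxa10* and *Hoxa11* are known for their part in uterine receptivity and in the stromal response to implantation.

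The libraries held 18996158 to 28460465 counts each. The targeted gene *Lif* had 0, 28 and 0 luminal counts under the labels control, eKO and eKO with rLif, so its counts do not bear those labels out. The paper places *Lif* before attachment in the glands, and its deletion leaves part of the exons in place. These few counts therefore cannot decide the genotypes. Luminal libraries are therefore called by their labels, and each direction between them rests on the labels alone. Of 10 luminal epithelial markers, all were found in every luminal library, among them *Wnt7a* with 2916 to 4338 counts. The same 3 libraries also held all 12 stromal markers, at 916, 1367 and 967 CPM in sum (counts scaled to a common library size by TMM). All 6 smooth muscle markers were present as well, at 70.4, 50.5 and 31.4 CPM. Immune markers summed to 236, 308 and 348 CPM and endothelial markers to 47.9, 69.4 and 94.1 CPM. Glandular markers summed to 19.3, 19.6 and 39.2 CPM. In blastocysts *Wnt7a* had 0 counts in all 3 libraries, and the 7 trophectoderm markers were all present. In bulk samples such as these, fewer cells of a type and less RNA per cell cannot be told apart.

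The 4 clusters were compact. In GRCm38/mm10, *Hoxa* lay on the minus strand of chromosome 6, and *Hoxb* spanned chr11:96194361-96368253, *Hoxc* chr15:102921131-103036852 and *Hoxd* chr2:74668310-74765142 on the plus strand. The widest gap inside a cluster, 74.7 kb, separated *Hoxb13* from *Hoxb9*. Exons of 2 members overlapped those of another gene, *Hoxa3* with 2700086A05Rik and *Hoxa11* with its antisense RNA *Hoxa11as*. Strandedness of the counting was not stated, so reads of these pairs cannot be told apart and their values are uncertain.

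RefSeq start sites give promoter sequence for 22 members (24 promoters, GRCm38.p6). The 250 bases before the start held a median of 12.5 CpG sites, with a range of 2 to 35, against a median of 6 over all 32851 promoters. Promoters of members present in the luminal layer had a median of 12 CpG sites (13 promoters), and those of the other members 18 (11 promoters). The highest luminal members, *Hoxb7*, *Hoxb6* and *Hoxb2*, were not among the 22, and *Hoxa10* and *Hoxd11* each gave a second promoter. Shown here are the promoters of *Hoxa10* (chr6:52240855-52241104, minus strand) and *Hoxd10* (chr2:74691641-74691890, plus strand), which were among the leading luminal members, and of *Hoxa13* (chr6:52260881-52261130, minus strand), which had 0 counts in all 3 luminal libraries. Each runs 5′ to 3′ up to the base before the start site, and capitals mark CpG sites.
Hoxa10: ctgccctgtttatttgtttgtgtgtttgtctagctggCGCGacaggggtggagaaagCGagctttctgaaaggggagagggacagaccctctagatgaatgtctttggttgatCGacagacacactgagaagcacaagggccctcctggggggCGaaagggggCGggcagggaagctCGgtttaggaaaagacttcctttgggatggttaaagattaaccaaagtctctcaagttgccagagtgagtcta
Hoxd10: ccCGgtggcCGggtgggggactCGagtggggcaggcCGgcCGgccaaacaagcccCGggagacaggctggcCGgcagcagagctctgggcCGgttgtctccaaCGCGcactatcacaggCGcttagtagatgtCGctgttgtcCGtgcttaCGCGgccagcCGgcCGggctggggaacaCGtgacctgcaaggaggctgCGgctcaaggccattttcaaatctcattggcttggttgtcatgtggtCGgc
Hoxa13: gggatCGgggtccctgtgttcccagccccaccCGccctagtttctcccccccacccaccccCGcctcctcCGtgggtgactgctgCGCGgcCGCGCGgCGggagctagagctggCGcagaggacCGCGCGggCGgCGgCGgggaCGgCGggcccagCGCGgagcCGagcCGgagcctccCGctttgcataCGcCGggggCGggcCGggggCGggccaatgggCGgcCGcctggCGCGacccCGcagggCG

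The 3 windows held 7, 20 and 35 CpG sites. *Hoxa13* had the most CpG sites of all 24 promoters, and a second RefSeq start of *Hoxa10* (window chr6:52234940-52235189) had 20, as did *Hoxd10*. On both strands, the palindromic STAT motif TTCNNNGAA occurred in 1 of 24 *Hox* promoters, that of *Hoxd4*, against 7.02% of all promoters. The PBX-HOX motif TGATTNAT occurred in 2 of 24, against 2.82%, and the palindromic estrogen response element in 0 of 24, against 0.0639%. A match is a description of letters in this window only.

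In the luminal layer, 17 of 39 members reached at least 1 CPM in all 3 libraries, against 51.9% of all genes. They comprised every *Hoxb* gene from *Hoxb2* to *Hoxb9*, the posterior genes *Hoxa9*, *Hoxa10* and *Hoxa11*, and *Hoxd3*, *Hoxd4* and *Hoxd8* to *Hoxd11*. None of the 9 *Hoxc* genes did. Another 17 members had under 10 counts over the 3 libraries, among them *Hoxa2*, *Hoxa3*, *Hoxa4*, *Hoxa6*, *Hoxa13*, *Hoxb13*, *Hoxc4*, *Hoxc5*, *Hoxc6*, *Hoxc9*, *Hoxc11*, *Hoxc12*, *Hoxc13*, *Hoxd1*, *Hoxd12* and *Hoxd13*. Of these, 13 had 0 counts throughout. The remaining 5 (*Hoxa5*, *Hoxa7*, *Hoxb1*, *Hoxc8* and *Hoxc10*) summed to 24 counts or fewer each. The *Hoxa* cluster was thus read at its posterior end up to *Hoxa11* but not at *Hoxa13*, and *Hoxd* likewise up to *Hoxd11* but not at *Hoxd12* or *Hoxd13*. For a member with 0 counts, a floor of 3 counts leaves room for 0.119 CPM in the library labelled control.

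**Figure D1:**
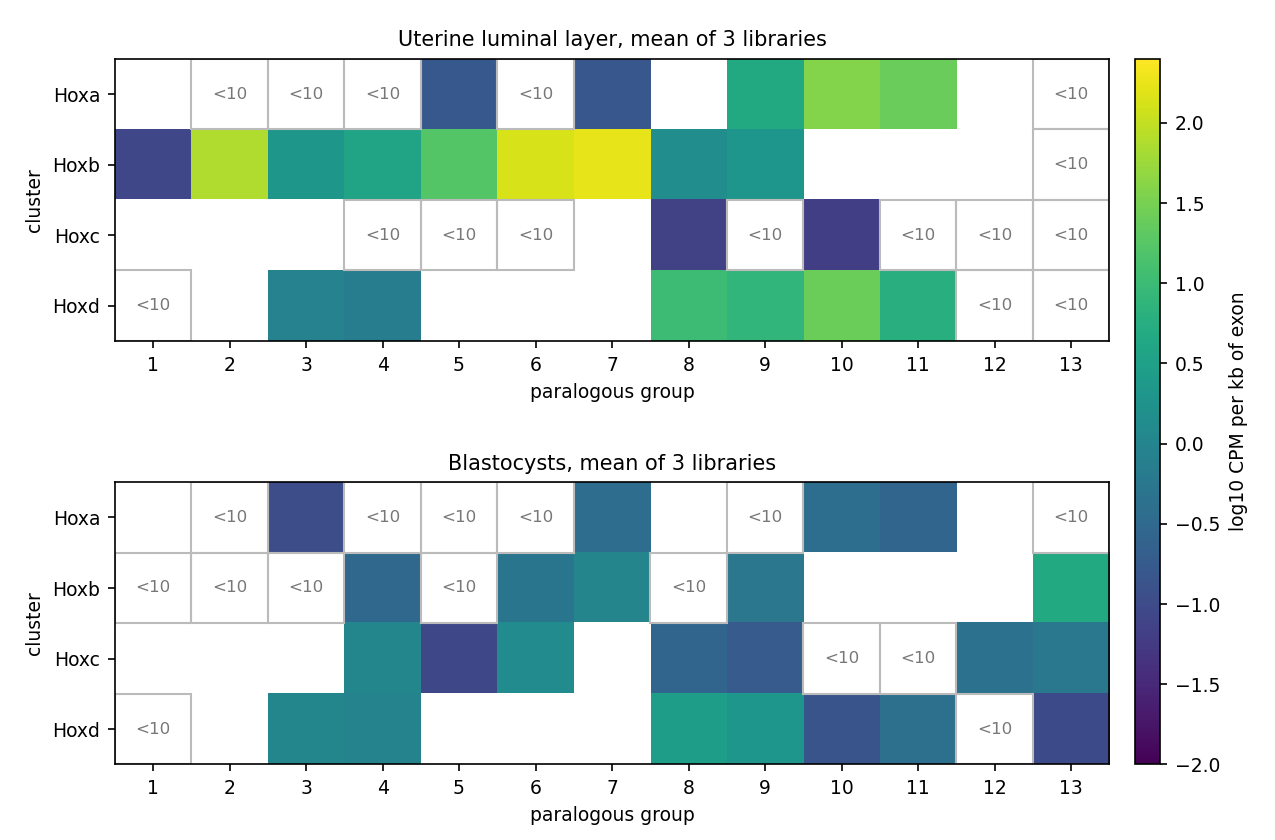
Mean level of each *Hox* gene by cluster (rows) and paralogous group (columns), as log10 CPM per kb of exon over the 3 libraries of a tissue, with "<10" for genes under 10 counts over those libraries and blank cells where the cluster has no gene or none is reported. The luminal layer shows a continuous run from *Hoxb2* to *Hoxb9*, a posterior *Hoxa* and *Hoxd* block and no *Hoxc* gene at 1 CPM in all 3 libraries, while blastocysts show low levels spread over all 4 clusters with *Hoxb13* highest.

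Levels between genes were compared per kb of exon. *Hoxb7* was highest in the luminal layer with a mean of 175 CPM per kb, above 95.9% of the 15694 genes with at least 10 counts over the 3 libraries. *Hoxb6* followed with 134 and *Hoxb2* with 74.7 CPM per kb. Each of these 3 stayed apart from the next, since the lowest library of the one exceeded the highest of the other. Between *Hoxb7* and *Hoxb6* this gap was narrow, at 159 against 157 CPM per kb, both in the library labelled control. *Hoxa10* (37.6 CPM per kb), *Hoxd10* (26.0), *Hoxa11* (24.7) and *Hoxb5* (16.6) formed a second tier in which neighbours in the order overlapped between libraries. Below them *Hoxd8* had 10.2 CPM per kb, and *Hoxd9*, *Hoxd11* and *Hoxa9* overlapped in turn from 8.00 down to 4.63. The same 6 genes led when TPM was used in place of CPM per kb. Neighbouring genes within the *Hoxb* cluster differed widely. *Hoxb8* lay 1.3 kb from *Hoxb7* and reached a mean of only 1.43 CPM per kb, and *Hoxb4* and *Hoxb3*, between *Hoxb5* and *Hoxb2*, reached 3.69 and 2.14.

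The leading *Hoxb* genes were close in all 3 luminal libraries. *Hoxb7*, a gene known from renal and axial patterning, had 5099, 7103 and 5691 counts under the labels control, eKO and eKO with rLif, or 202, 247 and 219 CPM. *Hoxb6*, its neighbour, had 5252, 4813 and 4090 counts, or 208, 168 and 157 CPM. *Hoxb2*, which acts in hindbrain patterning, had 3615, 3200 and 2877 counts, or 143, 111 and 111 CPM. Order among the libraries differed from gene to gene, with the library labelled eKO highest for *Hoxb7* and the one labelled control highest for *Hoxb6* and *Hoxb2*.

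The uterine *Hoxa* pair was lowest in the library labelled eKO with rLif. *Hoxa10* had 2968, 4285 and 2286 counts, or 118, 149 and 87.8 CPM. *Hoxa11* had 1690, 1690 and 1061 counts, or 66.9, 58.8 and 40.8 CPM, and the overlapping *Hoxa11as* had 2872, 3037 and 2477 counts. *Hoxd10*, a limb and spinal cord patterning gene, had 1198, 1500 and 1157 counts, or 47.5, 52.2 and 44.4 CPM. *Hoxa10* was highest in the library labelled eKO, where the summed markers of stroma (1367 CPM) and of luminal epithelium (5062, 6673 and 5176 CPM) were also highest. The stromal sum was lowest under the label control, unlike *Hoxa10*, and the order of *Hoxa11* was that of the smooth muscle markers. Immune, endothelial and glandular sums were highest under the label eKO with rLif, where *Hoxa10* and *Hoxa11* were lowest. The part of other cell types in these values was not tested.

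**Figure D2:**
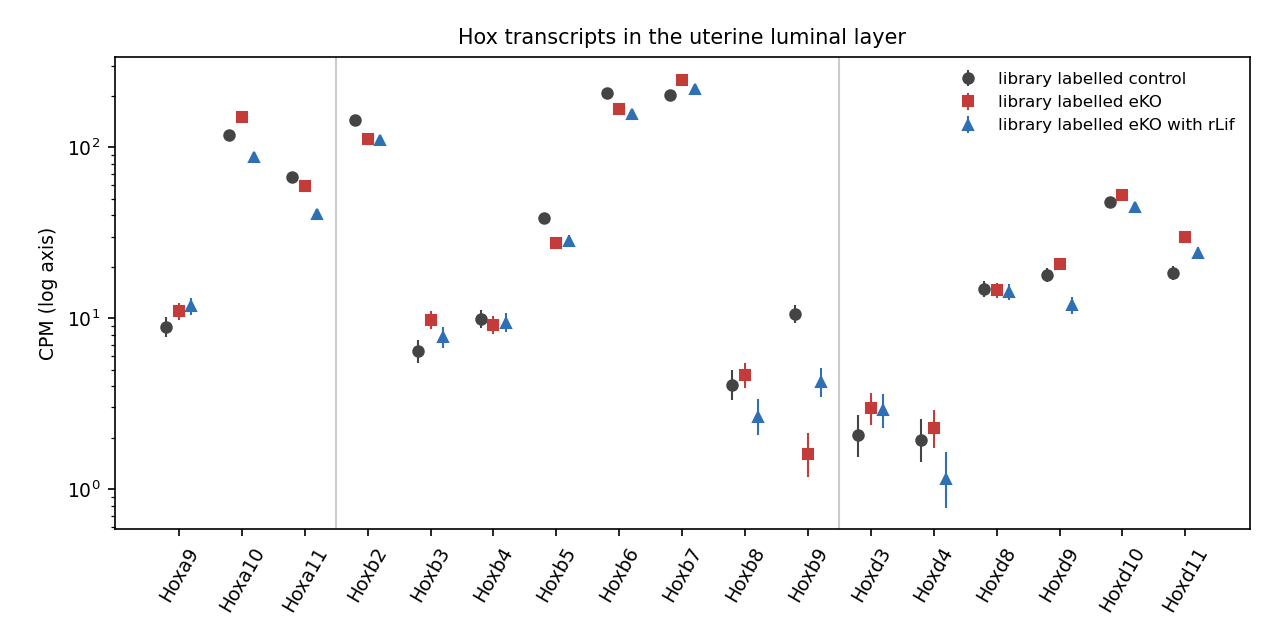
CPM of the 17 *Hox* genes at 1 CPM or more in all 3 luminal libraries, on a log axis, with 1 symbol per library and bars for exact Poisson 95% intervals (counting error only). *Hoxb9* has the widest spread, from 10.6 CPM in the library labelled control to 1.60 CPM in the one labelled eKO, while each of the other genes stays within a 2-fold range.

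All *Hox* genes together made up 0.0974%, 0.0929% and 0.0729% of all luminal counts under the labels control, eKO and eKO with rLif, or 921, 921 and 778 CPM. The *Hoxb* cluster gave 67.7%, 62.9% and 69.2% of the *Hox* counts, *Hoxa* 21.1%, 23.8% and 18.1%, and *Hoxd* 11.1%, 13.3% and 12.7%. *Hoxc* gave 0.0645%, 0.0151% and 0.0197%. The order of the clusters was the same in all 3 libraries. Paralogous groups 2, 6, 7 and 10 held 15.6%, 22.6%, 22.0% and 17.9% of the *Hox* counts in the library labelled control, whereas groups 12 and 13 had 0 counts there.

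The question was which transcripts of each tissue depend on epithelial Lif, and which respond to rLif. A gene was called when the exact 95% Clopper-Pearson interval of the ratio of 2 libraries lay wholly beyond a 2-fold difference (a log2 ratio of 1). Between the luminal libraries labelled eKO and control, 2 of the 22 members with at least 10 counts were called, against 17.2% of all genes tested. Both, *Hoxb9* and *Hoxc8*, were lower in the library labelled eKO, a direction in which 9.15% of all genes were called. *Hoxc8* passed the filter of 10 counts through the library labelled control alone. The share of members called was therefore below the background in total and close to it for lower genes. The median log2 ratio of the members was 0.05 (-0.01 with total counts, and 0.01 over all genes tested), 11 members were above 0 and 11 below, and the median size of the log2 ratio was 0.35, against 0.58 over all genes.

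*Hoxb9*, the most posterior gene of the main *Hoxb* block and known from skeletal and mammary development, had 268, 46 and 110 luminal counts in the same order of labels, or 10.6, 1.60 and 4.22 CPM. The Poisson intervals of the 3 libraries did not overlap. For eKO against control this was a log2 ratio of -2.73 (interval -3.21 to -2.27), and for eKO with rLif against control -1.33 (-1.66 to -1.0, an interval that ended at the limit). Between eKO with rLif and eKO it was 1.40 (0.89 to 1.93), which crossed the limit and was not called. *Hoxb8*, which lay 5.3 kb from *Hoxb9*, had 103, 133 and 69 counts and did not share this order.

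*Hoxc8*, a thoracic patterning gene, had 13 counts in the library labelled control and 0 in both others. Against a floor of 3 counts per library, this was 4.93-fold lower under the label eKO and 4.47-fold lower under the label eKO with rLif. The intervals, which include the error of the 13 counts, ended at log2 ratios of -1.79 and -1.65. The other 8 *Hoxc* genes together had 2, 4 and 4 counts, all of them from *Hoxc10*. *Hoxc8* was the weakest of the called genes, with 0.515 CPM in the one library that held it.

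Between the luminal libraries labelled eKO with rLif and control, the members called were again *Hoxb9* and *Hoxc8*, 2 of 22, against 9.16% of all genes. Lower genes made up 5.04% of all genes tested. The median log2 ratio of the members was -0.28 (0.01 over all genes), with 16 members below 0 and 6 above. Under the label eKO with rLif against eKO, 0 of 22 members were called, against 15.6% of all genes, and the median log2 ratio was -0.09. These comparisons share libraries, so the repeated names are no second observation.

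**Figure D3:**
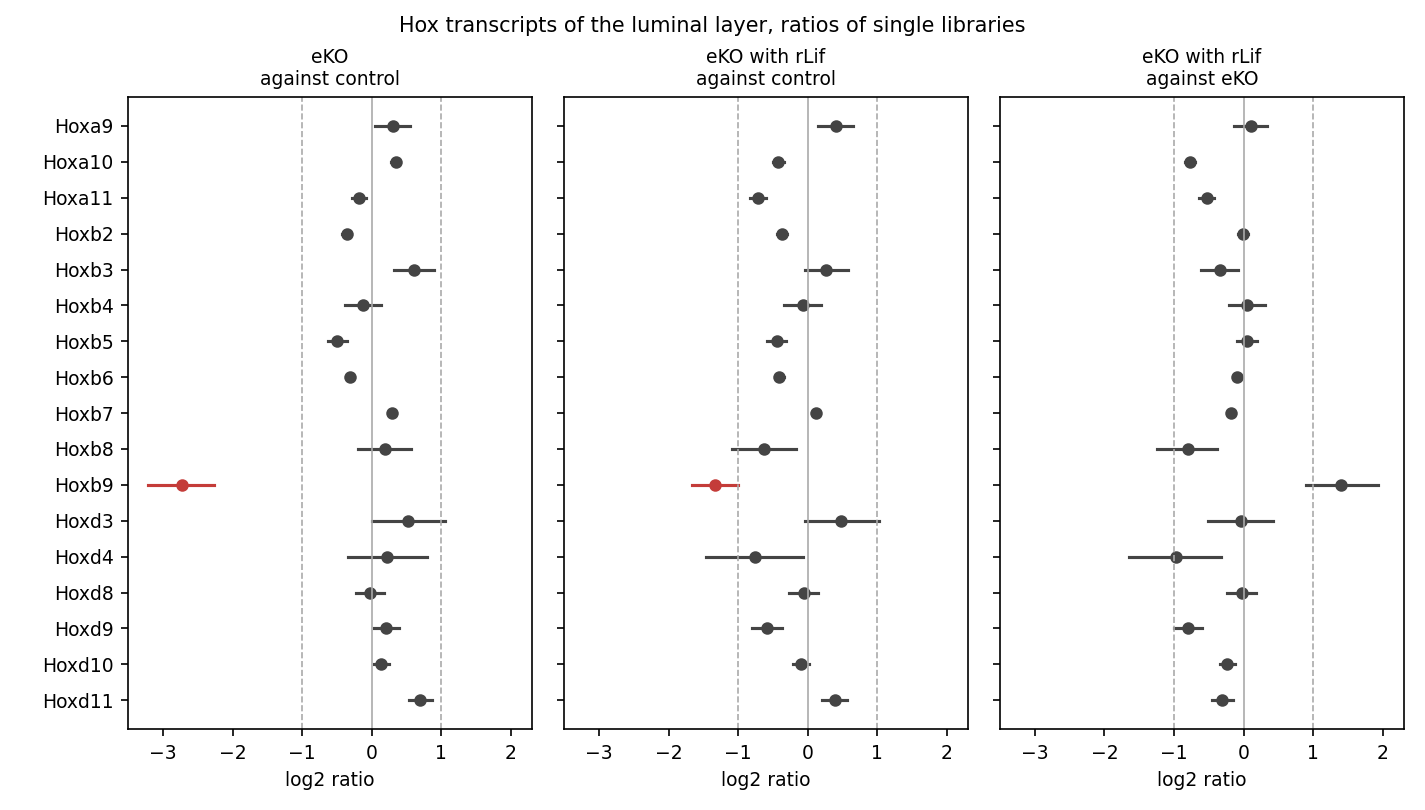
Log2 ratio of 2 luminal libraries for each of the 17 *Hox* genes at 1 CPM or more in all 3, with exact Clopper-Pearson 95% intervals, dashed lines at a 2-fold difference and called genes in red. *Hoxb9* lies beyond the lower line in both comparisons with the library labelled control (-2.73 and -1.33), and no other gene of the 17 is called.

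Among the 11 members with at least 10 CPM on average, 0 were called in the 3 luminal comparisons, whereas 14%, 5.39% and 12.1% of all 8923 genes at that level were called. Among the 6 members from 1 to 10 CPM, *Hoxb9* was called in both comparisons with the library labelled control, against 19.3% and 10.7% of genes at that level. In eKO against control, the interval of 16 of the 22 tested members (72.7%) excluded equality, as did that of 74.7% of all genes. Among the 11, the largest log2 ratio was that of *Hoxd11*, with 463, 853 and 625 counts and a value of 0.70 (0.53 to 0.86). For eKO with rLif against control, *Hoxa11* had a log2 ratio of -0.72 (-0.83 to -0.60) and *Hoxa10* one of -0.42 (-0.50 to -0.34). Without libraries from separate animals it is unknown whether such differences exceed the spread between pools.

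Summed by cluster, *Hoxa* and *Hoxd* were higher under the label eKO than under the label control (log2 ratios of 0.17 and 0.26) and *Hoxb* was lower (-0.11). The *Hoxa* value rested on *Hoxa10*, since the sum without it was -0.13. For eKO with rLif against control the sums were -0.47 for *Hoxa*, -0.21 for *Hoxb* and -0.06 for *Hoxd*. The ratio of *Hoxa10* to *Hoxb7* counts within a library was 0.582, 0.603 and 0.402. Relative to the leading *Hoxb* gene, *Hoxa10* was therefore lowest in the library labelled eKO with rLif. With the study's own limits on fold and false discovery rate applied through edgeR's exact test at an assumed dispersion of 0.1, the luminal calls were *Hoxb9* and *Hoxc8* for eKO against control (7.96% of all genes) and no member for the other 2 comparisons (2.18% and 7.07% of all genes).

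Genes that work with or regulate *Hox* genes were described from lists. Of all genes tested in the luminal layer, 17.2% were called in eKO against control. The shares were 9.16% for eKO with rLif against control and 15.6% for eKO with rLif against eKO. The 9 TALE cofactors, homeodomain partners that bind DNA together with Hox proteins, were all present in the luminal layer, and 0 of 9 were called in any of the 3 luminal comparisons. Their median log2 ratios were 0.40, -0.01 and -0.64 for eKO against control, eKO with rLif against control and eKO with rLif against eKO. Of 17 Polycomb genes, which keep *Hox* clusters silent, 0 were called in eKO against control, and *Cbx7* alone was called, as lower, in eKO with rLif against control (1062, 573 and 436 counts). Of 9 trithorax genes and H3K27 demethylases, which oppose Polycomb, *Kdm6a* was called higher in eKO against control, with 600, 1601 and 688 counts and a log2 ratio of 1.23 (1.09 to 1.37).

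The ParaHox genes, the sister group of the *Hox* clusters, had 0 counts in the luminal layer except for *Cdx2*, with 0, 15 and 0 counts. Of 18 noncoding RNAs of the *Hox* clusters, 10 were in the tables and 2 had at least 10 luminal counts. *Hotair*, which lies between *Hoxc11* and *Hoxc12*, had 12, 12 and 0 counts and was called lower in the library labelled eKO with rLif in both its comparisons. Of 6 genes known to respond to *Hoxa10* in the uterus, *Cdkn2b* was called lower in eKO against control, with 741, 74 and 259 counts and a log2 ratio of -3.51 (-3.87 to -3.16). None of the other 5 was called, and the median log2 ratio of the 6 was 0.41. The list was not sorted by direction of response, so this median is no reading of *Hoxa10* activity.

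Blastocysts held few *Hox* transcripts. All 39 members together had 763, 819 and 689 counts in blastocysts from control, eKO and rLif-treated eKO uteri, or 40.0, 41.9 and 35.4 CPM. At least 1 CPM in all 3 libraries was reached by 10 of 39 members, against 48.7% of all genes. Among these were *Hoxb9*, *Hoxb13*, *Hoxc4*, *Hoxc6*, *Hoxd3*, *Hoxd4*, *Hoxd8*, *Hoxd9* and *Hoxd11*, and the 10 were drawn from all 4 clusters. Under 10 counts over the 3 libraries were found for 15 members, namely *Hoxa2*, *Hoxa4*, *Hoxa5*, *Hoxa6*, *Hoxa9*, *Hoxa13*, *Hoxb1*, *Hoxb2*, *Hoxb3*, *Hoxb5*, *Hoxb8*, *Hoxc10*, *Hoxc11*, *Hoxd1* and *Hoxd12*. By cluster, *Hoxd* gave the largest share of the *Hox* counts (37.5%, 44.1% and 42.5%), followed by *Hoxb* (27.8%, 28.0% and 27.6%).

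*Hoxb13*, the most posterior *Hoxb* gene and known from the prostate and tail bud, led in blastocysts. It had 141, 102 and 121 counts, or 7.40, 5.22 and 6.22 CPM. Its mean of 4.78 CPM per kb lay above 45.7% of the 14873 genes tested in blastocysts, so the leading member was below the middle of the genes tested. *Hoxd8* had 69, 99 and 71 counts (2.89 CPM per kb on average) and *Hoxd9* 86, 97 and 68 counts (2.06 CPM per kb). *Hoxc6*, *Hoxd3* and *Hoxc4* followed with 1.32, 1.06 and 1.03 CPM per kb. *Hoxc6* had 34, 53 and 35 counts, *Hoxd3* 39, 70 and 70, and *Hoxc4* 38, 41 and 40. *Hoxb13* and *Hoxd8* each stayed apart from the next gene, and from *Hoxd9* down neighbours overlapped between libraries as far as *Hoxb6*.

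**Figure D4:**
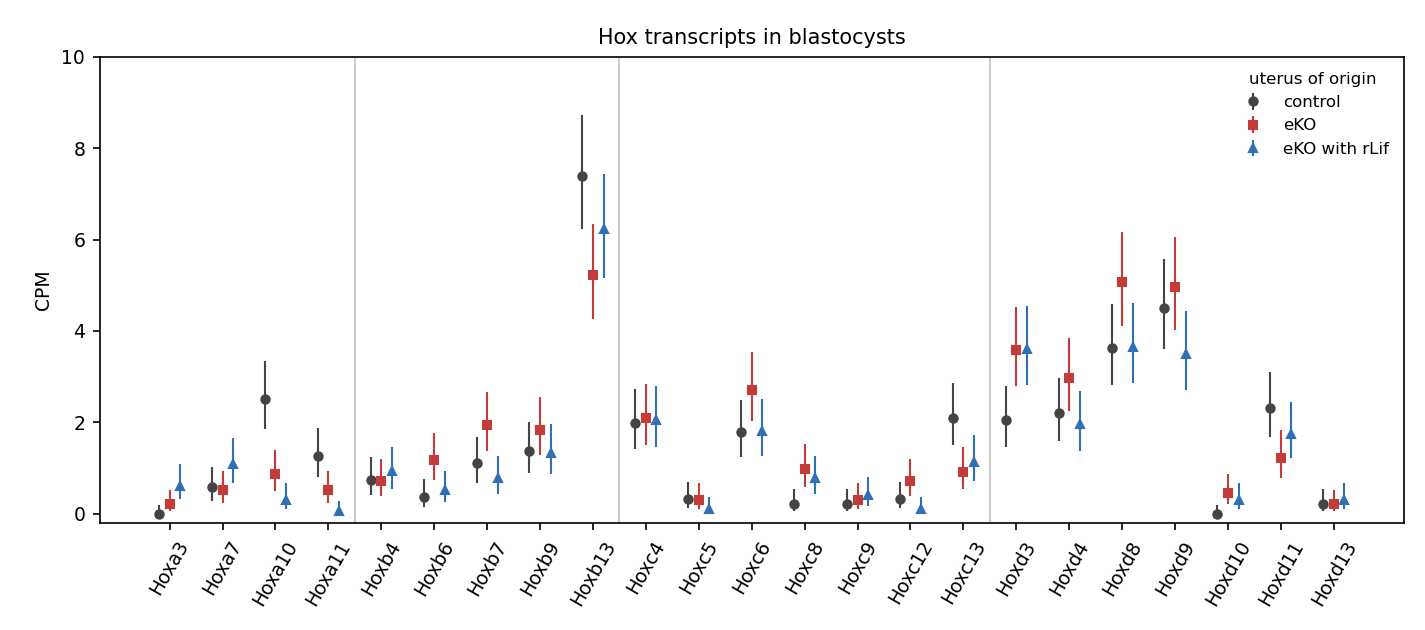
CPM of *Hox* genes with at least 10 counts over the 3 blastocyst libraries, with 1 symbol per library and bars for exact Poisson 95% intervals (counting error only). *Hoxb13* is highest in all 3 libraries (5.22 to 7.40 CPM), and *Hoxa10* and *Hoxa11* are highest in blastocysts from control uteri.

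Between blastocysts from eKO and control uteri, 0 of 24 tested members were called, against 3.15% of all genes. Between blastocysts from rLif-treated eKO and control uteri, 3 of 24 were called, against 4.94% of all genes. Of 13 members from 1 to 10 CPM, 1 was called (*Hoxa10*), against 8.34% of genes at that level. The other called members averaged under 1 CPM, so the 4.94% is not matched to their level. *Hoxa3* was higher, a direction with 0.948% of all genes, and *Hoxa10* and *Hoxa11* were lower, a direction with 3.99%. *Hoxa3* passed the filter of 10 counts only through the library in which it was called higher, that of blastocysts from rLif-treated eKO uteri. Between blastocysts from rLif-treated and untreated eKO uteri, 0 of 24 were called, against 3.75%. The median log2 ratios of the members in these comparisons were 0.26, -0.01 and -0.40. Under the study's own limits at a dispersion of 0.1, no member was called in the 3 comparisons, in which 0.437%, 0.834% and 0.39% of all genes were.

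*Hoxa10* had 48 counts in blastocysts from control uteri, 17 in those from eKO uteri and 6 in those from rLif-treated eKO uteri, or 2.52, 0.870 and 0.309 CPM. *Hoxa11*, next to it, had 24, 10 and 1 counts, or 1.26, 0.512 and 0.0514 CPM. The log2 ratio for rLif-treated eKO against control was -3.03 for *Hoxa10* (-4.54 to -1.80) and -4.61 for *Hoxa11* (-9.97 to -2.0). Against untreated eKO the ratios were -1.49 (-3.13 to -0.08) and -3.31 (-8.75 to -0.50), both crossing the limit. *Hoxa9*, the other posterior *Hoxa* gene of the luminal layer, had 4, 2 and 0 counts. *Hoxb7*, the leading luminal gene, had 21, 38 and 15 counts in the same libraries, so the ratio of *Hoxa10* to *Hoxb7* counts was 2.29, 0.447 and 0.400.

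Markers of uterine cells did not share 1 order across these blastocyst libraries. The sums were 8272, 8469 and 7903 CPM for luminal epithelium, many of whose markers trophectoderm also expresses, 4.14, 4.55 and 3.04 CPM for smooth muscle, 20.7, 24.0 and 13.1 CPM for immune cells and 85.7, 96.5 and 139 CPM for endothelium. Unlike these, the sums for glandular epithelium (6.92, 6.50 and 2.37 CPM) and for the 12 stromal markers (282, 279 and 248 CPM) fell in the order of *Hoxa10*. Of 3 glandular markers tested, *Foxa2* was called lower in rLif-treated eKO against control. *Foxa2* was also on the marker list for primitive endoderm, a cell type of the blastocyst itself. Of the luminal epithelial markers, *Krt19* (1401, 241 and 108 counts) was the only one called in eKO against control, and the median log2 ratio of that list was -0.04. In rLif-treated eKO against control, *Krt19* and *Lgals3* were called lower, and the median was -0.27. Of 10 stromal markers tested, 3 were called lower in eKO against control and 4 in rLif-treated eKO against control. The median log2 ratios of the stromal list were -1.03 and -1.20. Of all genes, 3.15% and 4.94% were called in either direction in these comparisons. Of the 6 genes that respond to *Hoxa10*, 3 and 4 were called lower in these comparisons, among them the integrin gene *Itgb3* (1026, 93 and 19 counts) and the prostaglandin receptor gene *Ptger3* (521, 6 and 11 counts). That list was not sorted by direction of response, and a link to the *Hoxa10* values was not tested. The luminal marker *Wnt7a* was at 0 in all 3 libraries. The part of maternal cells in the *Hoxa10* and *Hoxa11* values was not tested.

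*Hoxa3*, which acts in pharyngeal organs, had 0, 4 and 12 counts. Against a floor of 3 counts it was 3.92-fold higher in blastocysts from rLif-treated eKO than from control uteri. The interval of this log2 ratio began at 1.45. It shares exon sequence with 2700086A05Rik, which had 1, 0 and 0 counts. *Hoxa11as*, which overlaps *Hoxa11*, had 15, 12 and 4 counts. Both *Hoxa3* and *Hoxa11* were thus called on few reads and in overlapping exons. Of the 6 ParaHox genes, 2 were abundant in blastocysts. *Cdx2*, a trophectoderm regulator, had 11832, 16038 and 18477 counts, and *Cdx1* had 3211, 3906 and 2722 counts, both above the sum of all 39 *Hox* genes, whereas *Cdx4* had 12, 8 and 3 counts and the others 6 or fewer per library.

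Luminal layer and blastocysts were compared by range, with TMM scaling over the 6 libraries and over the 32 members with at least 10 counts in all. The lowest luminal CPM exceeded 2 times the highest blastocyst CPM for 14 of 32 members, against 22.0% of 17081 genes. The reverse held for 5 of 32 members, against 20.9% of all genes, and 13 met neither rule. Higher in the luminal layer were *Hoxa9*, *Hoxa10*, *Hoxa11*, all 7 genes from *Hoxb2* to *Hoxb8*, and *Hoxd8* to *Hoxd11*. Among those higher in blastocysts were *Hoxb13*, *Hoxc4*, *Hoxc6* and *Hoxc13*. Members thus stood above the background share in the luminal direction (43.8% against 22.0%) and near it in the other (15.6% against 20.9%).

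The size of the gap varied by gene. The lowest luminal library exceeded the highest blastocyst library 290-fold for *Hoxb2*, 145-fold for *Hoxb5*, 143-fold for *Hoxb6* and 112-fold for *Hoxb7*. It was 104-fold for *Hoxd10*, 38.3-fold for *Hoxa10* and 35.6-fold for *Hoxa11*. The gap was narrow for *Hoxd8* (3.02-fold) and *Hoxd9* (2.57-fold), and the ranges of *Hoxd3*, *Hoxd4* and *Hoxb9* overlapped between the tissues. In the other direction, *Hoxb13* had 0, 2 and 0 luminal counts and a gap of 69.2-fold. *Hoxc4* was at least 15.1-fold, *Hoxc6* at least 13.5-fold and *Hoxc13* at least 7.16-fold higher in every blastocyst library than the floor of 3 counts allows in the luminal ones. Tissue and preparation (laser microdissection against flushed embryos) cannot be told apart.

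**Figure D5:**
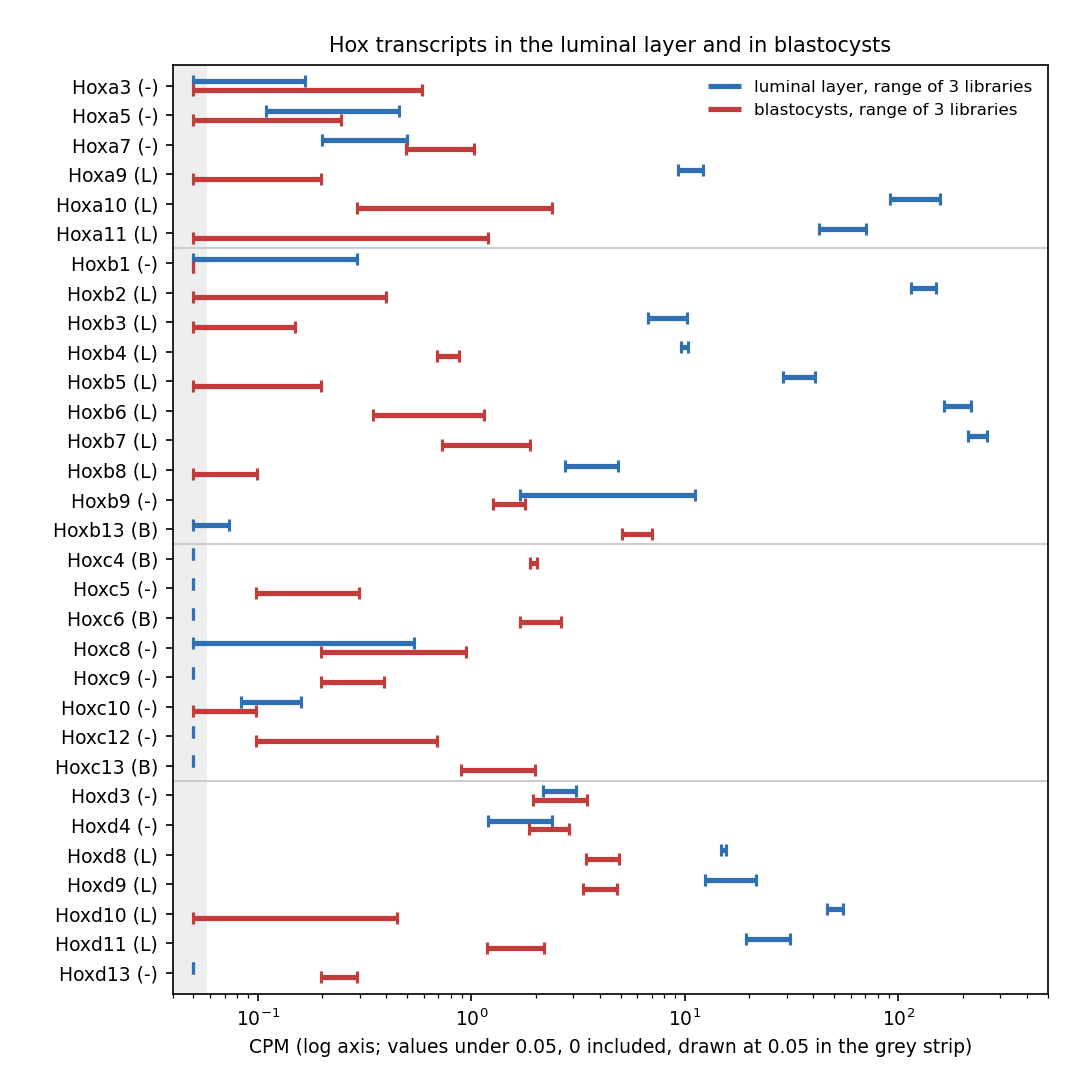
Range of CPM over 3 luminal libraries (blue) and 3 blastocyst libraries (red) for *Hox* genes with at least 10 counts over all 6, on a log axis, with L or B after the name of a gene higher in the luminal layer or in blastocysts by over 2-fold in every library and - for neither. Blue ranges lie to the right for *Hoxb2* to *Hoxb8*, *Hoxa9* to *Hoxa11* and *Hoxd8* to *Hoxd11*, and red ranges lie to the right for *Hoxb13*, *Hoxc4*, *Hoxc6* and *Hoxc13*.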

How the data were processed

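The authors made SMART-seq v4 libraries, aligned paired-end reads to GRCm38/mm10 with HISAT2 and counted them with featureCounts (Subread 2.0.0, per the labels). The deposited tables hold raw counts (whole numbers, not normalized) for every gene, although the study's methods describe RPKM. Annotation release, strand and multi-mapping settings were not given in the sources used here. Even counts were more frequent than odd ones among genes with 1 to 20 counts (52.6% to 62.7% even), so mates of a pair may have been counted singly. Members and lists were chosen with earlier results of these data known. TMM factors came from edgeR 4.0.16 under R 4.3.3, and genes with at least 10 counts over the 3 libraries of a tissue were tested. Clopper-Pearson (ratios) and Poisson (single counts) 95% intervals cover counting error only, since PCR copies cannot be told from separate molecules here. Where a library had 0 counts, folds were taken against 3 counts, without the counting error of the other library. For medians such a library was set to 3 counts. Named genes were all members called, the 6 highest of each tissue, members under 10 counts by name, and list genes called in luminal eKO against control. Other genes were named after their values were seen. Values of 1 member are not reported here, although it stays in the counts and sums. Of the listed genes, 8 were matched by older symbols. Scripts were tested on simulated data. Alternatives were other scalings (total counts, DESeq2 1.42.0 size factors), filters and limits.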

Additional observations from a re-analysis of the deposited data

How the results depend on the processing

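The number of *Hox* members called was the same with total counts, DESeq2 size factors and no filter on low counts in all 6 comparisons. Between the luminal libraries labelled eKO and control (2 members), 1 was called with at least 50 counts, 16 with a log2 limit of 0, 1 with a limit of 2 and 1 with all counts halved, an alternative chosen after seeing the data. *Hoxb9* was called under each of them. Of all genes, 16.2%, 74.7%, 5.53% and 12.8% were called in these settings. For luminal eKO with rLif against control (2 members), the numbers were 1, 13, 0 and 0 (7.61%, 66.2%, 1.88% and 5.37% of all genes), and 0 under the study's own limits at a dispersion of 0.1. For luminal eKO with rLif against eKO (0 members), a limit of 0 gave 12 (71.4% of all genes). In blastocysts, a limit of 0 gave 11 for eKO against control (0 members, 44.8% of all genes) and 7 for rLif-treated against untreated eKO (0 members, 52.7%). For rLif-treated eKO against control (3 members), 1 member, *Hoxa10*, was called with at least 50 counts, without the members with overlapping exons and with counts halved (3.62% of all genes with at least 50 counts, 2.39% with counts halved). A limit of 0 gave 7 (52.9%), a limit of 2 gave 0 (1%) and the study's limits gave 0. These numbers follow from the stricter or looser limits themselves. The counts of members higher in either tissue stayed within 1.5 times under a 4-fold gap, no gap, both other scalings, at least 50 counts and without overlapping members. No called member changed direction under another scaling. Without the member with most counts, the luminal sum for eKO against control turned from 0.17 to -0.13 for *Hoxa* (without *Hoxa10*) and from -2.09 to 0.81 for *Hoxc* (without *Hoxc8*), and that of *Hoxc* for eKO with rLif against control from -1.95 to 0.96. With total counts, the median of the members for luminal eKO against control went from 0.05 to -0.01, *Hoxb7* for eKO with rLif against control from 0.11 to -0.06, and for eKO with rLif against eKO *Hoxa9* from 0.10 to -0.01, *Hoxb4* from 0.05 to -0.06 and *Hoxb5* from 0.05 to -0.06. No paired analysis was possible because each group is 1 library. Leaving out a library leaves no comparison between groups, and was not run for the ranges over tissues. Members under 10 counts, 17 in the luminal layer and 15 in blastocysts, gave no comparison.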
